A study of Mus musculus with 8 samples.

Results

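The caseins, the whey protein gene Wap and the receptors and factors that control the milk-producing lineage were followed in a mouse model of mammary cancer that spreads to bone. Of the 10 genes listed (Csn1s1, Csn1s2a, Csn2, Csn3, Wap, Elf5, Prlr, Esr1, Pgr and Gata3), 9 had at least 1 probe set whose only gene symbol in the platform annotation was that gene. These held 20 probe sets of the 34945 with a single symbol, and Prlr was not analysed here. The bone metastasis group held 4 arrays of spine metastases and the primary group held 4 arrays of the mammary gland tumours that gave rise to them, each pair from 1 of 4 Balb/c mice carrying 4T1.2, a line cloned from the 4T1 mammary carcinoma. Both groups are labelled tumour epithelial cells, but the sources used here give neither the way the cells were isolated nor the age and sex of the mice.

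Caseins are the main proteins of milk. In the mammary gland, prolactin binds its receptor on alveolar cells and activates the kinase Jak2 and the transcription factors Stat5a and Stat5b, which switch on casein and Wap transcription together with the alveolar factor Elf5. Oestrogen and progesterone act through the nuclear receptors encoded by Esr1 and Pgr in a different set of luminal cells, and Gata3 and Foxa1 encode factors that maintain the luminal lineage.

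Values are log2 signals after RMA, a method that corrects background, normalizes arrays and summarises the probes of a probe set, so that 1 unit is a doubling of signal. The medians over all probe sets were 5.23 to 5.42 on metastasis arrays and 5.16 to 5.17 on primary arrays. A signal under its array's median is called dim here, and a difference from a dim group is not exact. The signal of the actin control was lower at its 5′ than at its 3′ probe set by 4.55 to 6.18 on metastasis arrays and by 1.08 to 1.90 on primary arrays (exact permutation test, two-sided, p = 0.0286, the smallest p that 4 against 4 arrays allow). Measures of RNA integrity and labelling therefore moved with the group in every comparison below, and their part in the results was not tested. Metastasis arrays also correlated less with each other (0.903 to 0.957 across probe sets) than primary arrays did (0.981 to 0.993).

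The labelled cell type was set against markers. Summed over 9 luminal epithelial genes (keratins, claudins, Epcam and Cdh1), the log2 signal was 10.01, 13.05, 11.06 and 13.69 on metastasis arrays 1 to 4, against 13.75 to 13.86 on primary arrays. Metastasis arrays 1 and 3 were thus far below the others in this sum, and 2 of the 9 genes, Krt19 and Cldn4, were called lower. The other 7 were not called, and Cdh1 had a higher mean in metastases (difference 0.43). Of 6 granulocyte genes 5 were called higher, with a summed signal of 14.06 to 15.04 on metastasis arrays and 9.06 to 10.17 on primary arrays, and all 6 neuronal and all 5 B lineage genes were called higher too. Of 6 macrophage genes 5 were called lower, with a summed signal of 12.43 to 13.80 on metastasis arrays and 14.68 to 15.46 on primary arrays. The part of these cell types in the results was not tested. In such bulk RNA, fewer cells of a type and less RNA per cell cannot be told apart.

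Among the 20 probe sets, 2 passed the threshold of 0.05 on the adjusted p (limma with Benjamini-Hochberg adjustment over all 34945), 1 of Csn3 and that of Gata3, and both fell in bone metastasis. Of all probe sets tested, 20.6% passed, 11.9% lower and 8.72% higher, so that the members' share of 10% did not exceed the background. With the mouse as a replicate block the count was 1 of 20, as Gata3 lost its call. At an unadjusted p under 0.05 there were 7 of 20, against 35% of all probe sets. The median log2 difference was -0.14 over the 20 probe sets, against 0.09 over all probe sets tested. On 9 of the 20 probe sets all 8 arrays were dim, among them both of Elf5, and these carry little information on direction. Counted by gene, with the probe set of the highest mean, 2 of 9 genes passed, against 21.8% of 18193 genes. The groups did not overlap on 5 of the 20 probe sets, against 28.3% of all probe sets.

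**Figure D1:**
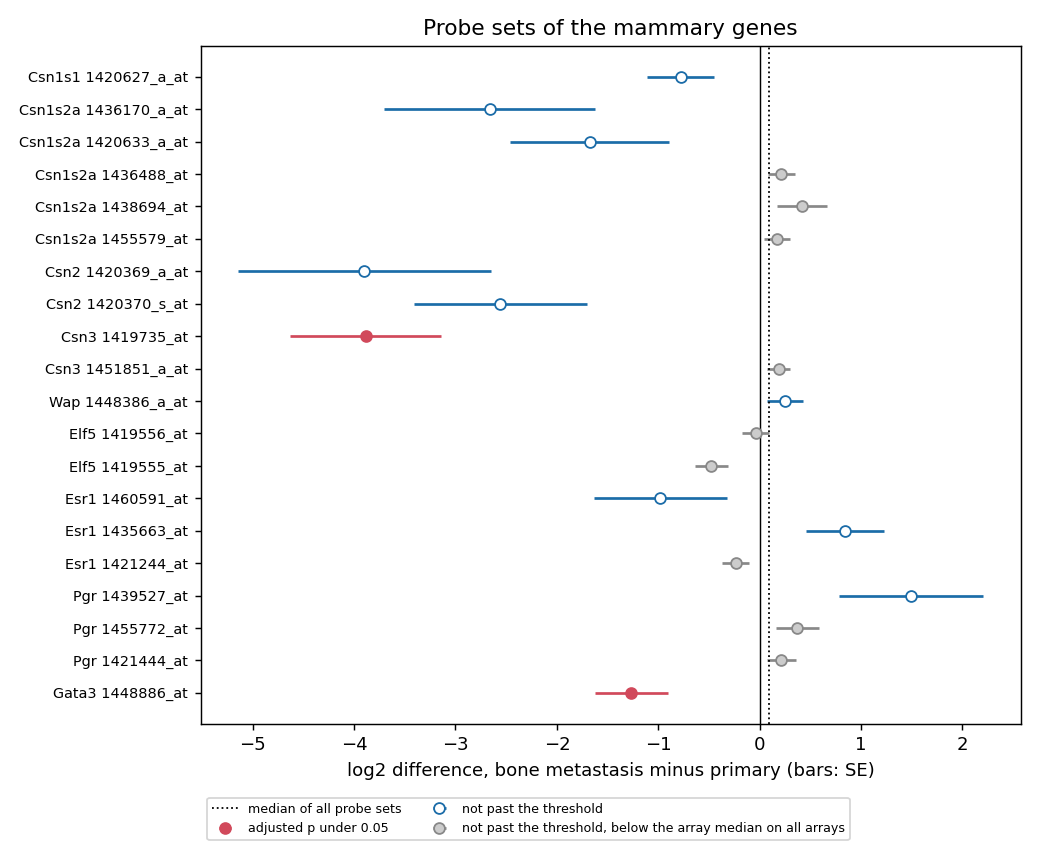
Log2 difference between bone metastasis and primary tumour (x axis, with SE bars) for each of the 20 probe sets (y axis). Filled red points passed the threshold, open blue points did not, and grey points were dim on all 8 arrays. The dotted line is the median of all probe sets at 0.09. The points farthest left are those of Csn2 (-3.90) and Csn3 (-3.88), with an SE of 1.25 and 0.74.

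The casein genes lie in 1 cluster on chromosome 5, in the order Csn1s1, Csn2, Csn1s2a, Csn1s2b and Csn3 in the RefSeq gene table. The sequences before the starts of Csn1s1 and Csn2 are shown because both genes had their highest primary signals in the same mice, as given below, and because each holds the letters TTCNNNGAA, the palindromic core bound by STAT5 dimers. They were chosen after the values of these genes were seen. Each is the 250 bases before the gene's start in RefSeq's GRCm38.p6 assembly, which is of C57BL/6J and not of Balb/c, and capitals mark the match.
Csn1s1 (chr5:87665958-87666207, plus strand): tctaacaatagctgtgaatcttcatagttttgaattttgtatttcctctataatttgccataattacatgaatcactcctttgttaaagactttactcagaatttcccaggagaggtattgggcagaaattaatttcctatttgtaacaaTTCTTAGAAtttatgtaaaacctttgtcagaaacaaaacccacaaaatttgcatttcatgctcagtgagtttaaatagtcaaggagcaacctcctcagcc
Csn2 (chr5:87699426-87699675, minus strand): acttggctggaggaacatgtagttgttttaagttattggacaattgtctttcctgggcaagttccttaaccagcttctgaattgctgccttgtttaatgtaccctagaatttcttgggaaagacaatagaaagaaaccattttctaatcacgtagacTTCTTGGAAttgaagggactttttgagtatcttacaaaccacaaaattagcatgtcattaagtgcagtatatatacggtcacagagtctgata

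The match begins 100 bases before the start of Csn1s1 and 93 bases before that of Csn2. In the window of Csn1s2a, TTCTTAGAA begins 20 bases after the annotated start. Over the 32851 promoter windows searched (250 bases before and 50 after a start, not on every chromosome), 8.30% held these letters on either strand (the motif reads the same on both). Of the 13 such windows listed for members, which covered 9 of the 10 genes and not Csn3, 5 held them: those of the 3 caseins above and 1 each of Esr1 and Prlr. A match is a description of the letters and not evidence of binding.

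For the called gene Gata3 the window held no STAT5-type letters, and it is shown as that of a called member; for Csn3, the other, no sequence is shown. Its 250 bases before the start are given from the same assembly.
Gata3 (chr2:9878601-9878850, minus strand): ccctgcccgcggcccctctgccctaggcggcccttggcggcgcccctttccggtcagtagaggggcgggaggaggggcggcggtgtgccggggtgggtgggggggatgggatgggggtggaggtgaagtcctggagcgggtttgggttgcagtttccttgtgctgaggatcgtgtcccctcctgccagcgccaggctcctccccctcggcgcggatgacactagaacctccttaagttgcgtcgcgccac

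Csn3 encodes kappa-casein, which coats and stabilises the casein micelle, and its probe set 1419735_at fell in bone metastasis. It had log2 signals of 4.52, 7.89, 4.87 and 5.40 on metastasis arrays 1 to 4, against 8.24, 9.96, 9.93 and 10.08 on primary arrays 1 to 4. Every metastasis array lay below every primary array, with metastasis 2 the nearest to them, and the signal was dim on the other 3. The mean was 5.67 ± 1.52 in bone metastasis and 9.55 ± 0.88 in primary tumours (SD, n = 4 each), a log2 difference of -3.88 with an SE of 0.74, or 14.8-fold lower (limma adjusted p = 0.00896). With the mouse as a block the adjusted p was 0.00997.

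Luminal markers were low on some of the same arrays. Of the 9 luminal genes, Krt19, a keratin of luminal cells, was below every primary array on all 4 metastasis arrays, at 4.29, 5.06, 3.87 and 5.57 on metastasis arrays 1 to 4, against 7.27, 8.90, 6.68 and 9.38 on primary arrays 1 to 4. Cldn4, a claudin of tight junctions, was likewise below every primary array, at 6.52 to 7.46 in metastases and 7.77 to 9.18 in primary tumours. The summed luminal signal is carried by Krt8 and Krt18, the main keratin pair of luminal cells, which on metastasis array 4 had 12.97 and 11.86, against 13.07 to 13.32 and 11.37 to 11.95 on primary arrays. Cdh1 alone of the 9 had a higher mean in metastases. It had 7.0, 7.89, 6.96 and 5.74 on metastasis arrays 1 to 4, against 5.67 to 7.02 on primary arrays. Its difference of 0.43 (SE 0.46) was not called (limma adjusted p = 0.519), and Epcam had a difference of -0.22 (SE 0.25). The part of the luminal markers in the Csn3 difference was not tested. Leaving out metastasis arrays 1 and 3, the lowest in summed luminal signal, gave a Csn3 difference of -2.91 and the call was lost (limma adjusted p = 0.0606). These arrays were also the lowest in Csn3 itself (4.52 and 4.87), and that fit has fewer arrays. It therefore cannot decide on the part of the luminal markers. Leaving out both arrays of mouse 3 or mouse 4 also ended the call (adjusted p = 0.0811 and 0.0706), and leaving out any 1 array did not (0.00088 to 0.0339). The other Csn3 probe set, 1451851_a_at, was dim on all arrays and had a difference of 0.19 (SE 0.11).

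Csn2 encodes beta-casein, and its signal on probe set 1420369_a_at differed widely among the primary tumours. Log2 signals were 3.90, 4.23, 3.99 and 3.49 on metastasis arrays 1 to 4, all dim, against 3.85, 10.55, 9.44 and 7.37 on primary arrays 1 to 4. The primary tumour of mouse 1 was as dim as the metastases, and that of mouse 2 was the brightest. The groups therefore overlapped, and the difference of -3.90 (SE 1.25) did not pass the threshold (limma adjusted p = 0.0582, or 0.053 with the mouse as a block). Without primary array 1 it was -5.22 and passed (adjusted p = 0.00405), and it also passed with arrays scaled on their 75th percentile (0.0425), with the filter on dim probe sets (0.0309) and with the variance trend (0.0359). That filter, on the mean of all arrays, kept this probe set only through its primary arrays. In all the difference passed in 5 of 19 alternatives. It did not pass without primary array 2, 3 or 4 (limma adjusted p = 0.115 to 0.149).

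Probe set 1420370_s_at, whose probes also fit other transcripts, gave Csn2 the same order. It had 3.97, 4.04, 4.18 and 4.38 on metastasis arrays and 4.13, 8.62, 7.91 and 6.13 on primary arrays, a difference of -2.56 (SE 0.85, limma adjusted p = 0.0661). Without primary array 1 the difference was -3.41 (adjusted p = 0.00732), and it passed in 3 of 18 alternatives. In mice 2, 3 and 4 both Csn2 probe sets were lower in the metastasis, by 1.75 to 6.32, and in mouse 1 the differences were 0.05 and -0.17.

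Csn1s2a encodes an alpha-S2-type casein, and 2 of its 5 probe sets gave a signal above the array median on any array. On 1436170_a_at it had 4.58, 4.30, 4.55 and 4.86 in metastases 1 to 4 and 4.32, 9.82, 8.62 and 6.18 in primary tumours 1 to 4. The primary tumours again ran from mouse 2 to mouse 3, mouse 4 and mouse 1, and that of mouse 1 lay among the metastases. The difference was -2.66 (SE 1.04, limma adjusted p = 0.107), and -3.64 without primary array 1 (adjusted p = 0.0193). This difference passed the threshold in 2 of 19 alternatives. The second bright probe set, 1420633_a_at, kept this order with a difference of -1.68 (SE 0.78, adjusted p = 0.164). The remaining 3 probe sets were dim on all arrays, with differences of 0.17 to 0.41.

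Csn1s1 encodes alpha-S1-casein and showed the same order on a smaller scale. Its log2 signal was 5.36, 5.54, 5.56 and 5.70 in metastases 1 to 4, against 5.44, 7.12, 6.66 and 6.06 in primary tumours 1 to 4. The difference of -0.78 (SE 0.33) did not pass (limma adjusted p = 0.132), and without primary array 1 it was -1.07 (adjusted p = 0.0312). That was the only 1 of 19 alternatives in which it passed.

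**Figure D2:**
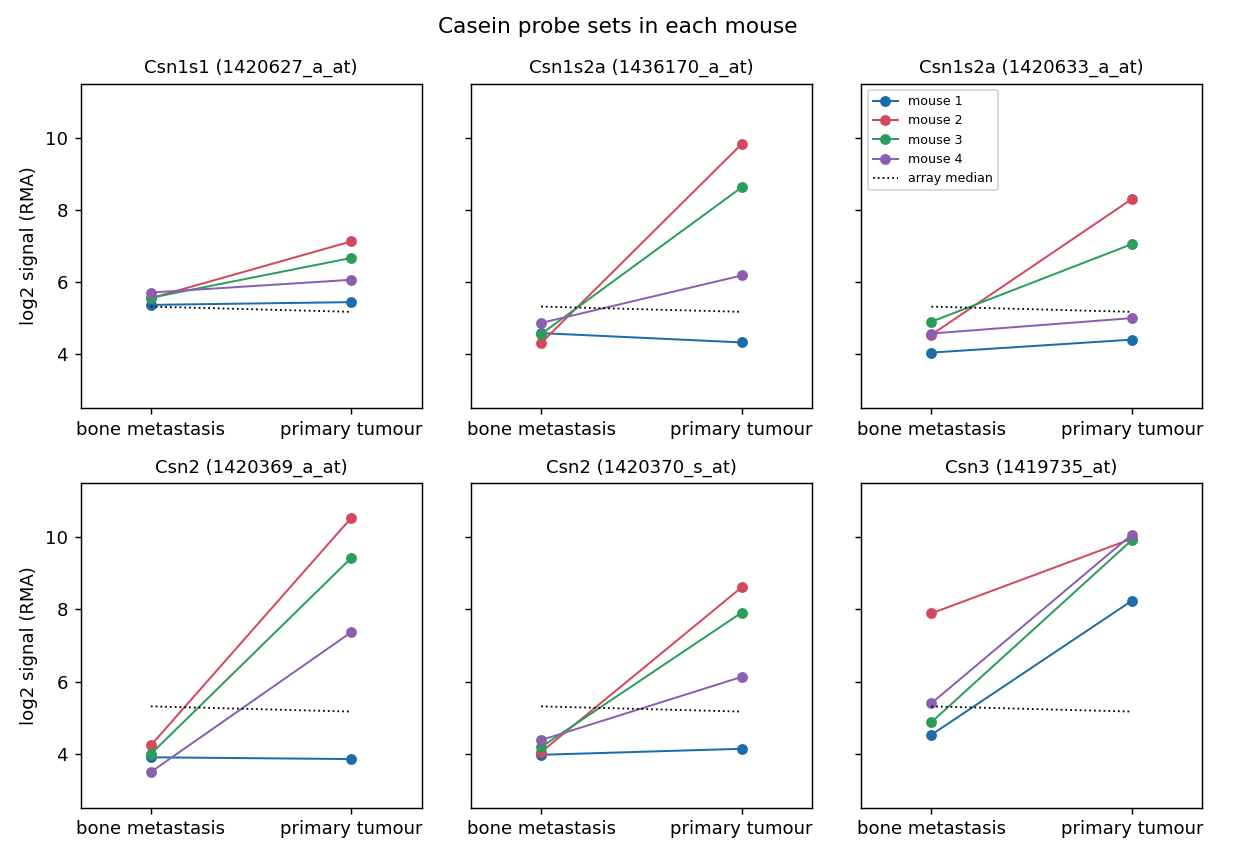
Log2 signal (y axis) of 6 casein probe sets in bone metastasis (left) and primary tumour (right). Each line joins the 2 tumours of 1 mouse, and the dotted line joins the mean array medians of 5.31 and 5.17. Primary tumours fan out from mouse 1 to mouse 2 for Csn1s1, Csn1s2a and Csn2, whereas all 4 Csn3 lines are higher on the primary side, with metastasis 2 at 7.89 and the other metastases at 4.52 to 5.40.

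The spread of these genes among primary tumours was wide for this data set. Over the 4 primary arrays Csn2 spanned 6.70 log2 units and Csn1s2a 5.51, which were ranks 1 and 2 among 18193 genes, whose median span was 0.37. Csn3 and Csn1s1 spanned 1.84 and 1.69. On the metastasis arrays Csn2, Csn1s2a and Csn1s1 spanned 0.74, 0.56 and 0.34, against a median of 0.92 over all genes. The order mouse 2, 3, 4, 1 was found on all 5 bright probe sets of Csn1s1, Csn1s2a and Csn2, and 5.32% of all genes had it. Probe sets of 1 gene are not separate cases beside that share. Those of Csn1s2a and Csn2 were bright on primary arrays only, and the dim Csn1s2a probe sets had other orders. Csn3 also had its lowest primary signal in mouse 1.

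The pattern of Csn2 over the 8 arrays was nearest to that of its neighbour Csn1s2a, with a root-mean-square difference of 0.83 log2 units between the profiles after each was centred on its mean. Over all genes compared the median of this measure was 2.71. Outside the members, the 5 nearest genes were Hal (1.34), Hmox1 (1.39), Ms4a8a (1.41), Tpsab1 (1.43) and Pstpip2 (1.52). Hmox1, which encodes haem oxygenase, had 6.46, 9.03, 8.33 and 6.98 on metastasis arrays and 8.76, 12.16, 10.26 and 10.43 on primary arrays, so that mouse 1 was lowest in both tumours. All 5 had their lowest primary value in mouse 1, but they were chosen for likeness to Csn2, itself lowest there, so this is no separate result. The primary tumour of mouse 1 was also the lowest of the primary tumours in several summed marker lists. These were macrophage (14.68, against 15.13 to 15.46 in the others), granulocyte (9.06, against 9.49 to 10.17) and mast cell and basophil markers (7.81, against 8.39 to 9.10). It was the highest of them in summed fibroblast markers (12.65, against 10.98 to 11.31), and also in T cell and B lineage markers. The part of these cell types in the casein values was not tested.

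Other genes of the cluster did not show the casein spread. Csn1s2b, a further alpha-S2-type casein gene, was dim on all arrays, with 4.12 to 4.80 in metastases and 3.80 to 4.02 in primary tumours. Of the non-casein genes with a probe set between Csn1s1 and Csn3, Odam was dim throughout, and Prr27 had 4.93 to 5.55 in metastases and 5.24 to 5.33 in primary tumours.

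Wap encodes whey acidic protein, a major milk protein of rodents, and stayed near the array median in both groups. Its log2 signal was 5.27, 5.21, 5.43 and 5.67 in metastases 1 to 4, against 4.95, 5.52, 5.21 and 4.91 in primary tumours 1 to 4. The difference of 0.25 had a 95% interval of -0.16 to 0.66 (limma adjusted p = 0.354). The primary tumour of mouse 2, the brightest for Csn2, was also the brightest for Wap, but the Wap values spanned only 0.60 log2 units there.

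Elf5, which encodes the ETS factor that directs alveolar differentiation, was dim on all 8 arrays by both probe sets. On 1419555_at it had 3.75, 3.98, 4.04 and 3.41 in metastases and 4.21, 4.38, 4.17 and 4.33 in primary tumours, with no overlap but a difference of only -0.48 (SE 0.16, limma adjusted p = 0.0741). It passed after quantile normalization (-0.61, adjusted p = 0.0366) and with an intensity trend in the variance (adjusted p = 0.0408). On 1419556_at the difference was -0.04 (SE 0.14), and its sign turned with scaling to the 75th percentile (0.16).

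Gata3 encodes a zinc-finger factor that maintains luminal cells and is also made in T cells, and it fell in bone metastasis in the fit without a block. Its single probe set, 1448886_at, had 5.28, 6.64, 6.49 and 5.84 in metastases 1 to 4, against 8.12, 6.89, 7.12 and 7.19 in primary tumours 1 to 4. The groups did not overlap, but metastasis 2 and primary tumour 2 were 0.25 apart, and mouse 1 held both the lowest and the highest value. The mean was 6.06 ± 0.63 in metastases and 7.33 ± 0.54 in primary tumours (SD, n = 4 each), a difference of -1.26 with an SE of 0.36, or 2.40-fold (limma adjusted p = 0.041).

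The call for Gata3 was lost with the mouse as a block (adjusted p = 0.104) and held in 5 of 19 alternatives. It was also lost after quantile normalization (0.0576) and scaling to the 75th percentile (0.0582). Among fits without 1 array, it held without metastasis array 2 (0.0271) and was lost without any other (0.0531 to 0.0887). Without both arrays of mouse 1 the difference was -0.74 (0.0862), and without metastasis arrays 1 and 3 it was -1.08 (0.113). Of 6 T cell and innate lymphoid genes, Cd3d, Cd3g and Cd4 were highest in primary tumour 1 (6.96, 6.64 and 6.96), Cd3e and Cd8a in metastasis 4 (8.63 and 6.89), and Il7r in metastasis 1 (11.07). None of the 6 was called, their summed signal overlapped between the groups (10.56 to 11.32 in metastases, from 10.31 in primary tumours), and their part in the Gata3 values was not tested.

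Esr1 encodes oestrogen receptor alpha, and its 3 probe sets did not give 1 direction. The brightest, 1460591_at, had 9.15, 6.82, 5.88 and 6.26 in metastases 1 to 4, against 8.70, 7.64, 7.68 and 8.0 in primary tumours 1 to 4. Mouse 1 was the highest in both tumours, and the metastasis was higher than the primary tumour in that mouse alone. The difference was -0.98 (SE 0.66, limma adjusted p = 0.319), with a 95% interval of -2.48 to 0.52. Without metastasis array 1 it was -1.69 and passed (adjusted p = 0.0111), and it passed in 3 of 19 alternatives.

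On 1435663_at Esr1 had 6.96, 4.91, 5.62 and 6.01 in metastases and 5.19, 5.09, 4.77 and 5.07 in primary tumours. Here 3 of 4 metastases lay above all primary tumours, with metastasis 1 again the highest, and the difference was 0.84 (SE 0.38, limma adjusted p = 0.154). Without metastasis array 2 it was 1.16 and passed (adjusted p = 0.0304), the only 1 of 18 alternatives in which it did. The third probe set, 1421244_at, was dim on all arrays, with a difference of -0.24 (adjusted p = 0.235, or 0.0439 after quantile normalization).

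Pgr encodes the progesterone receptor, a classical target of oestrogen receptor alpha, and was dim on all primary arrays. Probe set 1439527_at had 8.29, 4.32, 6.29 and 5.67 in metastases 1 to 4, against 4.50, 5.11, 4.43 and 4.56 in primary tumours 1 to 4. Metastases 1, 3 and 4 lay above every primary tumour and metastasis 2 below all of them. The difference was 1.49 (SE 0.71, limma adjusted p = 0.173), with a 95% interval of -0.13 to 3.12, and without metastasis array 2 it was 2.10 and passed (adjusted p = 0.0334). That was the only 1 of 18 alternatives in which it passed. The 2 other Pgr probe sets were dim on all arrays, with differences of 0.21 and 0.37.

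The metastasis array with the most Esr1 and Pgr signal had the least summed luminal signal. On metastasis array 1 the summed luminal markers were lowest (10.01), and summed fibroblast markers were highest (13.49, against 11.92 to 12.37 on the other metastasis arrays and 10.98 to 12.65 on primary arrays). Of the 4 fibroblast genes 1, Dcn, was called higher and 1, Pdgfra, lower. Unlike the sum, Pdgfra had its lowest value of all arrays on metastasis array 1 (6.70). The 3 osteoblast markers measured, of which 1 was called higher, summed to 8.37 on that array, against 7.44 to 8.08 on the other metastasis arrays and 6.63 to 6.84 on primary arrays. Tnfsf11, which encodes RANKL, a progesterone target in the mammary gland that osteoblast lineage cells also make, had 8.44, 5.0, 5.24 and 4.10 in metastases 1 to 4 and 3.69 to 4.49 in primary tumours. Its difference of 1.61 (SE 0.81) did not pass (limma adjusted p = 0.189), and it was singled out after its values were seen. Summed B lineage markers were also highest on metastasis array 1 (14.55, against 11.17 to 13.12 on the other metastasis arrays). Primary array 1 had a higher fibroblast sum (12.65) than metastasis arrays 2 to 4, and Pgr was dim there (4.50). The part of these cell types in the receptor signals was not tested.

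**Figure D3:**
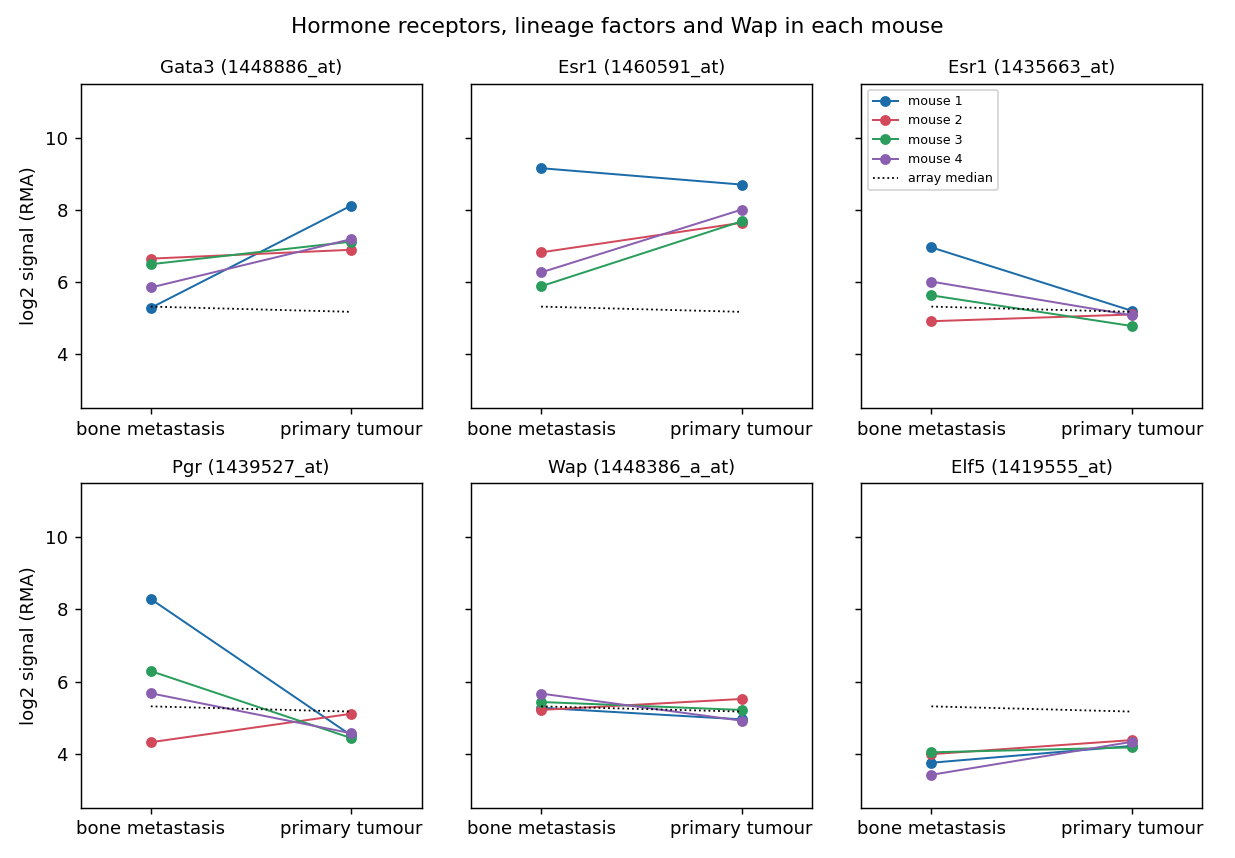
Log2 signal (y axis) of Gata3, Esr1, Pgr, Wap and Elf5 probe sets in bone metastasis (left) and primary tumour (right), with 1 line per mouse and the mean array medians dotted. Mouse 1 stands at the top of the metastasis side for both Esr1 probe sets and for Pgr (8.29) and at its bottom for Gata3 (5.28).

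**Figure D4:**
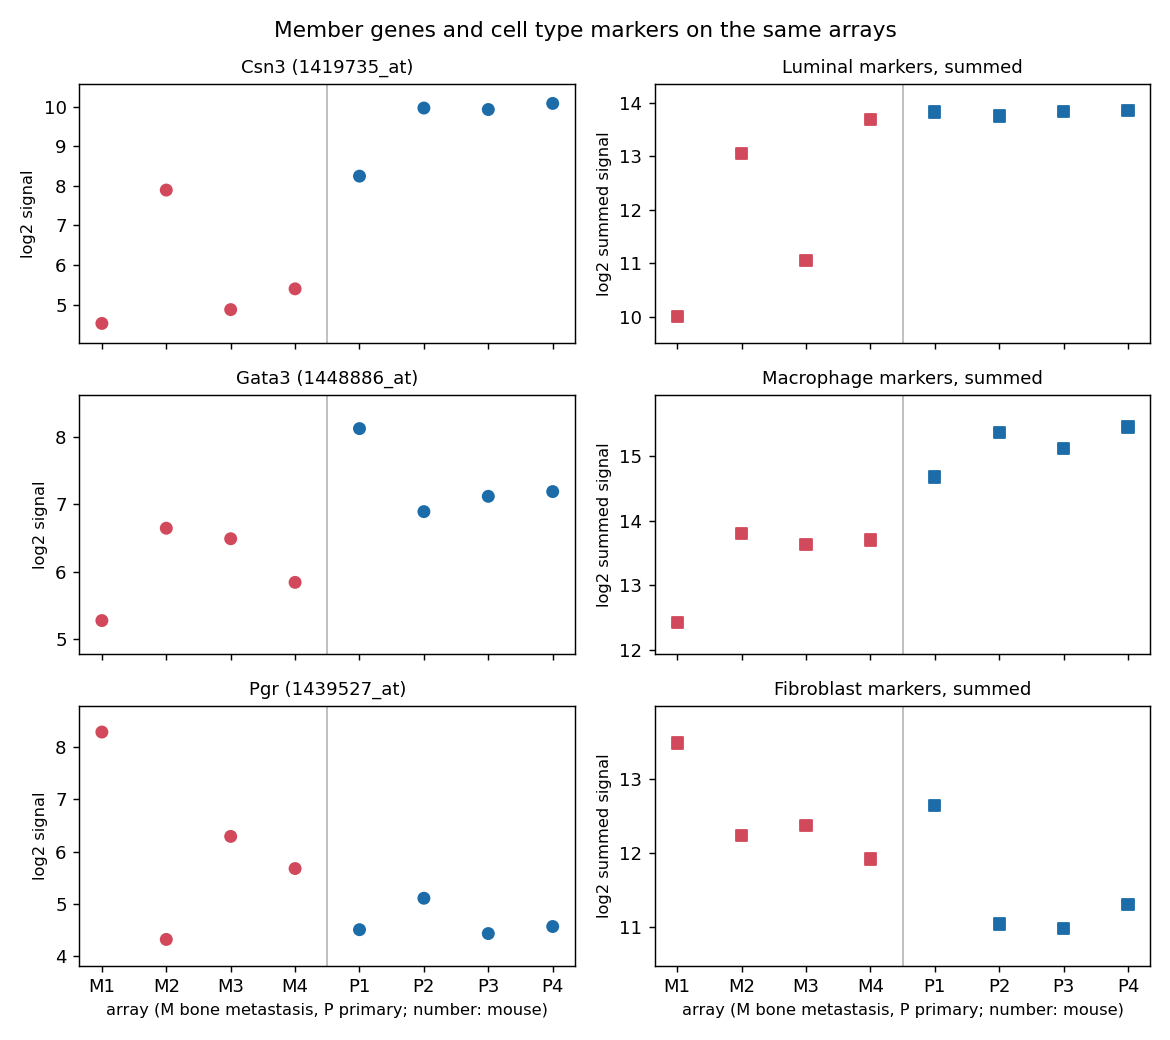
Log2 signal of Csn3, Gata3 and Pgr on each array (left column) and log2 of the summed signal of luminal, macrophage and fibroblast markers on the same arrays (right column), with metastasis arrays M1 to M4 in red left of primary arrays P1 to P4 in blue. Axes do not start at 0. Csn3 was below all primary arrays on M1 to M4, summed luminal markers were lowest on M1 (10.01) and M3 (11.06), and fibroblast markers were highest on M1 (13.49), as was Pgr.

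The wider pathways were counted by gene, in lists chosen with earlier results of these data known, against a background of 12.1% of genes lower and 9.72% higher. Of 13 other milk protein and milk secretion genes, 1 was lower and 0 were higher, with a median difference of -0.03 (0.09 over all genes). Plin2, which coats lipid droplets and is part of milk fat globules, fell by 1.57 (SE 0.42, limma adjusted p = 0.0299), and this call held in 12 of 20 alternatives, not without primary array 2, 3 or 4 or metastasis array 1 or 4 (0.0505 to 0.0825). It had 10.46, 12.14, 11.71 and 10.70 in metastases 1 to 4 and 12.12, 13.45, 12.88 and 12.83 in primary tumours 1 to 4, so that the primary tumours ran in the same order of mice as for Csn2. Wfdc18, a secreted protein related to Wap, had 6.6, 8.33, 7.61 and 7.62 in metastases and 8.33, 9.97, 8.38 and 9.37 in primary tumours, with its highest value in the primary tumour of mouse 2, as for Csn1s1, Csn1s2a and Csn2. Its difference of -1.47 (SE 0.46) did not pass (adjusted p = 0.0523), but it did with the mouse as a block (0.0125) and without metastasis array 2 (0.0291). Xdh, the xanthine dehydrogenase of the milk fat globule, had a difference of -1.05 (SE 0.45, adjusted p = 0.133, or 0.0244 with the block) and Mfge8, a lipid-binding protein of the same globule, one of -0.75 (SE 0.27, adjusted p = 0.0805, or 0.0097 without metastasis array 4). Wfdc18 passed in 6 of 20 alternatives, and Xdh and Mfge8 in 2 of 20 each.

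Of 10 genes of prolactin receptor signalling, 2 were lower and 0 higher, with a median of -0.10. Ghr, the growth hormone receptor of the same receptor family, fell by 1.58 (SE 0.43, limma adjusted p = 0.0313), a call that was lost with the block (0.0731) and without any 1 array other than primary 2 and metastasis 2 (0.0555 to 0.0817), and held in 8 of 20 alternatives. Socs1, a feedback inhibitor of Jak kinases, fell by 0.69 (SE 0.18, adjusted p = 0.0296), lost with the block (0.0517) and without primary array 2, 3 or 4 or metastasis array 2 or 3 (0.0515 to 0.0873), and likewise held in 8 of 20. The transducers of the prolactin signal were not called: Stat5a had a difference of 0.66 (SE 0.25, adjusted p = 0.0879, but 0.0104 after quantile normalization and 0.0196 with arrays scaled on their 75th percentile) and Stat5b one of -0.37 (SE 0.40). Stat5a passed in only those 2 of 20 alternatives. Jak2 had 0.27 (SE 0.24) on its brightest probe set and -1.79 (SE 0.56) on the other, so its direction rests on the probe set.

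Of 15 genes measured in the oestrogen and progesterone pathway, 2 were lower and 0 higher, with a median of -0.03. Foxa1, the pioneer factor that opens chromatin for oestrogen receptor alpha, had 4.77, 7.28, 5.06 and 4.91 in metastases 1 to 4, against 9.23, 8.55, 8.24 and 7.88 in primary tumours 1 to 4. All metastases lay below all primary tumours and metastasis 2 was the highest of them, as it was for Csn3. Foxa1 fell by 2.97 (SE 0.56, limma adjusted p = 0.00783) and the call held in 18 of 20 alternatives, not without mouse 3 (0.0649) or metastasis arrays 1 and 3 (0.062). Nr3c1, the glucocorticoid receptor that acts with Stat5 on casein genes, fell by 1.70 (SE 0.49, adjusted p = 0.0385) on its brightest probe set, held in 7 of 20 alternatives and among fits without 1 array only without metastasis 2 or 4 (0.0569 to 0.0969 without the others), and its other 5 probe sets ranged from -2.04 to 0.16. Nrip1, a corepressor of nuclear receptors, had -1.24 (SE 0.41, adjusted p = 0.0623, or 0.00822 without metastasis array 2) and passed on 3 of its 5 other probe sets (-0.76 to -2.48). Counted by gene, Nrip1 passed in 5 of 20 alternatives.

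Of 13 luminal and alveolar lineage regulators, 2 were higher and 0 lower, with a median of 0.14. Bhlha15, which encodes the secretory-cell factor Mist1, was the gene whose call held in 20 of 20 alternatives, with a rise of 1.73 (SE 0.25, limma adjusted p = 0.00268) on its brightest probe set. The other Bhlha15 probe set had a smaller difference of 0.46 (SE 0.25) and was not called (limma adjusted p = 0.233). Bhlha15 is also made in plasma cells, for which no specific marker was listed. Summed markers of B cells and their precursors were 11.17 to 14.55 in metastases and 7.08 to 7.80 in primary tumours, with their part in the rise not tested. Gata2, a GATA factor of blood progenitors and mast cells, rose by 1.46 (SE 0.30, adjusted p = 0.0109), a call lost without mouse 3 (0.0848) or mouse 4 (0.081), while Gata3 was lower in the same metastases. Id2, which alveolar development needs, had -1.01 (SE 0.40, adjusted p = 0.104, or 0.00536 without metastasis array 2) and Cebpb, needed for alveolar differentiation, -0.71 (SE 0.47, adjusted p = 0.311), and other probe sets of both were called lower (-3.06 and -1.02 for Id2, -2.81 for Cebpb). Counted by gene, Id2 passed in 4 of 20 alternatives and Cebpb in 2 of 20.

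**Figure D5:**
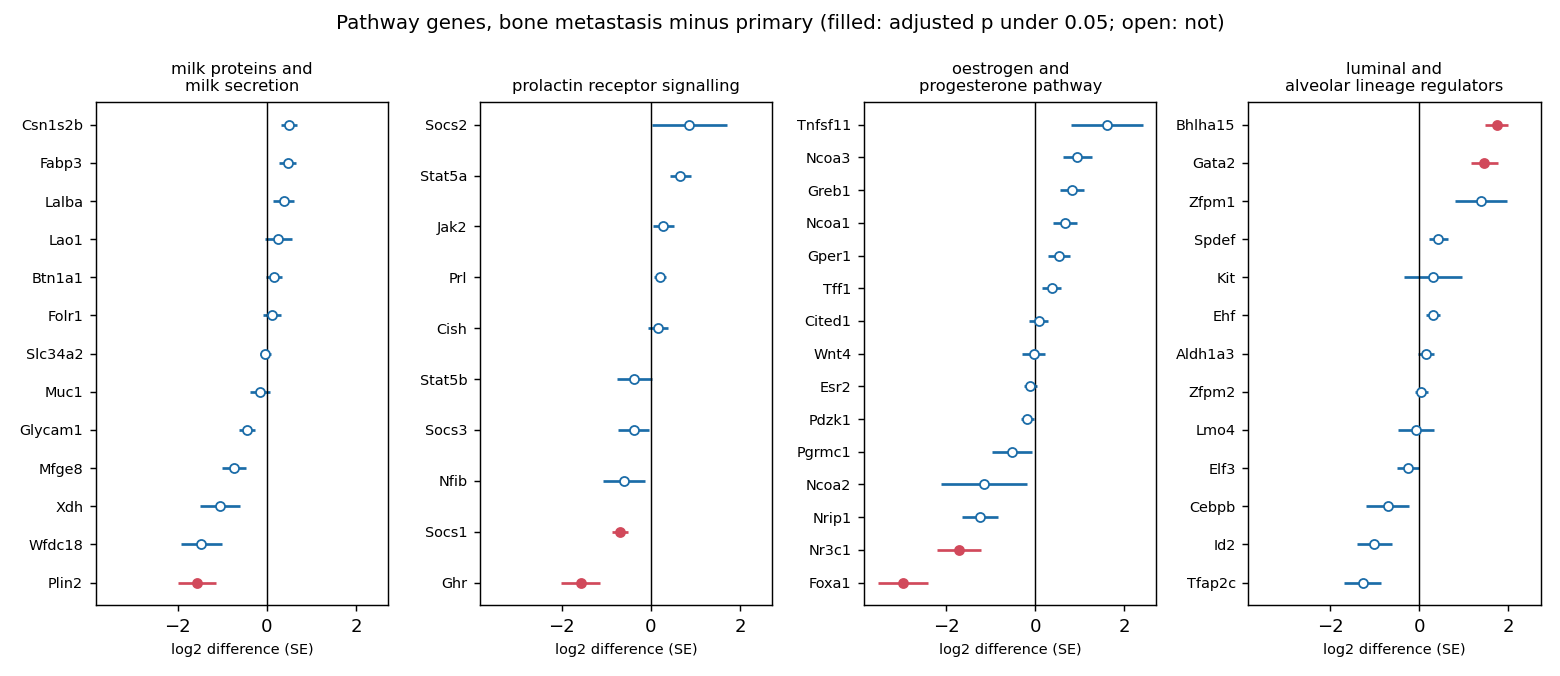
Log2 difference between bone metastasis and primary tumour (x axis, SE bars) of each gene in 4 pathway lists, by the probe set with the highest mean. Filled red points passed the threshold. Foxa1 at -2.97 is the lowest point of the 4 panels and Bhlha15 at 1.73 the highest.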

How the data were processed

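RNA of 8 one-colour arrays was labelled in a 2-cycle scheme, per the labels' protocols. The deposited log2 signals come from RMA, as the authors' processing notes name it, with the version and any later step not given in the sources used here. Of 45101 probe sets, 34945 had a single symbol in the platform annotation and were fitted with limma 3.58.1 (R 4.3.3; lmFit, eBayes, two-sided, Benjamini-Hochberg over all, threshold 0.05), bone metastasis minus primary, with no block and no filter on dim probe sets. Pathway genes came from the same fit on the probe set with the highest mean of each of 18193 genes. Arrays have no read depth, so their number limits the precision. The fit was tested on simulated data with equal spread in both groups and no pairing, unlike these arrays. Members and lists were chosen with earlier results of these data known. The text names every member, the called genes of each list and a few others of high level or known role. Replicate numbers pair arrays because both tumours came from 1 mouse, per the series' design text; deviations from group means correlated between the 2 arrays of a mouse at 0.16, 0.00, 0.03 and -0.10. Motifs were searched in RefSeq promoter windows. Alternatives were the mouse as a replicate block, other scalings, a dim filter, a variance trend, wider adjustment, other probe set choices and left-out arrays. Python 3.11.15 was used with pandas 2.3.3, scipy 1.17.1 and matplotlib 3.10.9.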

Additional observations from a re-analysis of the deposited data

Results flagged for a closer look

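Of the 40 groups of 4 arrays tested, 1 held an array far from the other 3, where chance gives about 1 in 20. The Csn3 probe set 1419735_at had a log2 signal of 8.24 in primary tumour 1, below 9.93 to 10.08 in the other primary tumours, and this gap took 91.6% of the group's range. Without that array the Csn3 difference was -4.32, against -3.88 with it.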

How the results depend on the processing

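With 4 arrays a group, the calls of these genes were few and moved with the arrays. The count of 2 called member probe sets became 1 with the mouse as a replicate block, 1 without metastasis arrays 1 and 3, 5 with an intensity trend in the variance, and 0 to 5 when 1 array or both arrays of 1 mouse were left out. The 5 without primary array 1, without mouse 1 or with the trend included Csn2 each time. The count of 2 called genes became 1 after quantile normalization, 1 without metastasis arrays 1 and 3, and 0 to 4 with arrays or mice left out. Over all probe sets 7214 were called, and 2319 to 8439 with arrays or mice left out; the block gave 5757. With arrays scaled on their 75th percentile, the median difference of all probe sets was 0.29, against 0.09 as deposited, and 44.5% of calls were lower, against 57.8%. The median over member probe sets was then 0.065, and it was -1.96 over the 6 probe sets that passed the filter on dim ones. That filter used the mean of all arrays. Csn2 1420369_a_at and Csn1s2a 1436170_a_at, dim in all metastases, passed it only through their primary arrays. The median of -1.96 follows in part from this choice and is no separate result. Directions turned for Elf5 1419556_at (0.16 with that scaling, 0.12 without metastasis arrays 1 and 3, and -0.10 to 0.042 with arrays or mice left out), for Jak2 (-1.79 with the most variable probe set and -0.76 with the mean of its probe sets) and for Stat5b (0.049 with that mean). The cause was not tested. Over 725 values of single probe sets and genes, 610 kept their direction and call, 66 lost a call, 42 gained one and 7 turned direction. Besides Gata3, Wfdc18, Xdh, Ghr and Socs1, given with their genes, the block changed no call of a member probe set or of a named gene outside the members. Counted by gene, 2 member genes were called with the block as without it, and these need not be the same 2. Dim signal limits what can be said of Elf5, of Pgr in primary tumours and of Csn1s2a and Csn2 in metastases.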
